A study of Mus musculus with 4 samples.

Results

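The collagen gene family was examined in the livers of ADAR2 knockout and wild-type mice fed a high-fat diet (HFD). Members were taken by name alone, as every gene whose symbol reads Col, a number, a and a number, which gave 44 collagen genes of the 25655 genes in the count table. Both groups carried the GluR-B R/R allele, an edited form of a glutamate receptor gene that lets mice without the RNA-editing enzyme ADAR2 survive, and both came from crosses of heterozygotes on a B6129S background. The HFD-KO mice were ADAR2-/-/GluR-B R/R and the HFD-WT mice were ADAR2+/+/GluR-B R/R, and all began the HFD at 5 weeks of age and ate it for 12 weeks. Polyadenylated liver RNA was sequenced in 4 libraries, 2 per genotype (HFD-WT 1 and 2, HFD-KO 1 and 2). The deletion is carried in every cell of the animal. The sample labels give no sex, while the paper limits its later experiments, these livers among them, to male mice. It also gives more mice per group than there are libraries, without stating whether a library held RNA of 1 mouse or of several, so p-values measure only the spread between these libraries.

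Collagens are the main structural proteins of the extracellular matrix. Each is built of 3 chains wound into a triple helix, which requires a glycine at the start of every triplet of residues (the Gly-X-Y repeat), and the chains are hydroxylated and folded in the endoplasmic reticulum before they are secreted, trimmed and crosslinked. Fibrillar collagens such as types I, III and V form the tensile fibres laid down in scar tissue, type IV forms the sheet of basement membranes, FACIT collagens sit on the surface of fibrils, type VI forms beaded filaments, and the multiplexins (types XV and XVIII) carry sugar chains and lie in basement membrane zones. In the liver, stellate cells and portal fibroblasts are the best known sources of fibrillar collagen, and hepatocytes are known to make type XVIII.

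The reading frames show how differently these classes use the repeat. In the longest open reading frame of the GENCODE M21 transcripts of each gene (found for 44 of 44), the longest unbroken run of glycine-led triplets of codons was 216 to 344 triplets long in the 11 fibrillar genes, with a median of 338. The run was 344 triplets in Col3a1, 338 in Col1a1 and 339 in Col1a2. The 6 type IV genes had runs of at most 39 to 66 triplets but 23 to 27 runs of 3 or more triplets each, so their helix is broken many times. The longest run was 30 triplets in both multiplexins, Col18a1 and Col15a1, 37 to 87 triplets in the 6 type VI genes and 32 to 113 triplets in the 9 FACIT genes.

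The sequence upstream of the start site was read for 35 of the 44 genes from RefSeq (build GRCm38.p6), 38 windows of 150 bases in all. Shown here are 4 fibrillar genes well measured in these livers whose window overlaps no annotated exon. In HFD-KO, Col3a1 and Col5a1 were the pair whose lower values reached an unadjusted p under 0.05, and Col5a3 and Col27a1 did not reach it. Each window is given 5′ to 3′ and ends at the base before the start site. Capitals mark motifs found on either strand. A TATA box was TATAAA on the printed strand, while TTTATA was its form on the opposite strand. A CCAAT box was CCAAT on the printed strand, while ATTGG was its opposite form. A GC box was GGGCGG on the printed strand, while CCGCCC was its opposite form.
Col3a1 (chr1:45311388-45311537, plus strand): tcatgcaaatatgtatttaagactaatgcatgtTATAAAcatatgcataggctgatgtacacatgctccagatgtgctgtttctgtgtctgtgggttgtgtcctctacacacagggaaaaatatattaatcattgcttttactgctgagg
Col5a1 (chr2:27886275-27886424, plus strand): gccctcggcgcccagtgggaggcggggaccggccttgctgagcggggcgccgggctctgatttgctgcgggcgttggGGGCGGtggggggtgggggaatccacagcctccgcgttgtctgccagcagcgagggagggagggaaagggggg
Col5a3 (chr9:20815068-20815217, minus strand): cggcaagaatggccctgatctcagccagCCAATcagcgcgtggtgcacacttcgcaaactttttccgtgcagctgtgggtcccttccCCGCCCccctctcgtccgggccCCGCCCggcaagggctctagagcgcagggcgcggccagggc
Col27a1 (chr4:63215262-63215411, plus strand): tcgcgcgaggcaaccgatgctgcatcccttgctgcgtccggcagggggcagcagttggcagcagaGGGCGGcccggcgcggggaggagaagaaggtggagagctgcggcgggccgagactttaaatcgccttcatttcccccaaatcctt
The Col3a1 window held a TATAAA that began 117 bases before the start site and no CCAAT or GC box. The Col5a1 and Col27a1 windows each held 1 GC box, and the Col5a3 window held 1 CCAAT box and 2 GC boxes. Over the 38 collagen windows, 19 held a GC box, against 28.6% of the 32851 mouse promoters in the same table. A CCAAT box was found in 8 windows, against 24.5% of all promoters, and a TATA box in 4, against 7.57%. Col3a1 and Col5a1 had none of these motifs in common.

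The libraries held 24480798 to 28691330 counted reads. Adarb1, which encodes ADAR2, checked the labels, with 15.7 and 19.8 CPM (reads of a gene relative to the library total, after scaling by edgeR's TMM factors) in HFD-WT and 6.23 and 9.54 in HFD-KO. Its log2 fold change was -1.17 (SE 0.20, adjusted p = 0.159, quasi-likelihood test of edgeR, Benjamini-Hochberg), so reads of the gene remained in both HFD-KO libraries. The HFD-KO 2 library stood apart in other genes. Red cell genes summed to 757 and 600 CPM in HFD-WT, 810 in HFD-KO 1 and 1146 in HFD-KO 2. The median and counts of the collagen family are therefore also given without HFD-KO 2. Most other results are given by library only.

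Of the 44 collagen genes, 39 had at least 1 read and 28 passed the filter on low counts and were tested. Reads mapped to none of 5 genes, namely Col2a1 (the cartilage fibril), Col10a1 (the growth plate network), Col19a1, Col26a1 and the type VI chain Col6a4. A count of 0 allows up to 3 reads, which is 0.104 to 0.126 CPM by library, from counting error alone. Another 11 genes had reads but too few to test, from 1 to 33 reads over the 4 libraries together. They had at most 7 reads in any library in the FACIT genes Col9a1, Col9a2, Col9a3 and Col22a1, the fibrillar gene Col11a1, the transmembrane genes Col17a1 and Col25a1, and Col28a1. The fibrillar gene Col24a1 had 5 and 13 reads in HFD-WT and 7 and 4 in HFD-KO. The type IV chain Col4a3 had 7 and 7 reads in HFD-WT and 3 and 5 in HFD-KO, and the type VI chain Col6a5 had 11 and 10 reads in HFD-WT and 5 and 7 in HFD-KO.

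Col18a1 (chr10:76888012-77002382 on GRCm39), the type XVIII chain whose end is the source of endostatin, was by far the highest collagen in these livers. Per kilobase of exon it was at 145 and 157 CPM in HFD-WT and 156 and 162 CPM in HFD-KO, while the next gene, Col5a3, had a mean of 8.99 CPM per kilobase. Col18a1 alone held 70.7% and 70.1% of all collagen reads in HFD-WT 1 and 2, 74.4% in HFD-KO 1 and 78.8% in HFD-KO 2. After Col18a1, the mean levels per kilobase ran Col5a3 (8.99 CPM), Col3a1 (8.04), Col4a1 (7.78), Col14a1 (6.77), Col1a2 (5.14), Col27a1 (4.52), Col4a2 (4.18), Col1a1 (3.89) and Col6a1 (3.55). In HFD-WT, Col5a3 and Col3a1 overlapped, at 9.07 and 9.67 against 8.96 and 10.3 CPM per kilobase, so their order is not beyond the spread, whereas Col1a2 at 5.91 and 6.85 lay above Col1a1 at 4.72 and 5.33 in both libraries.

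**Figure D1:**
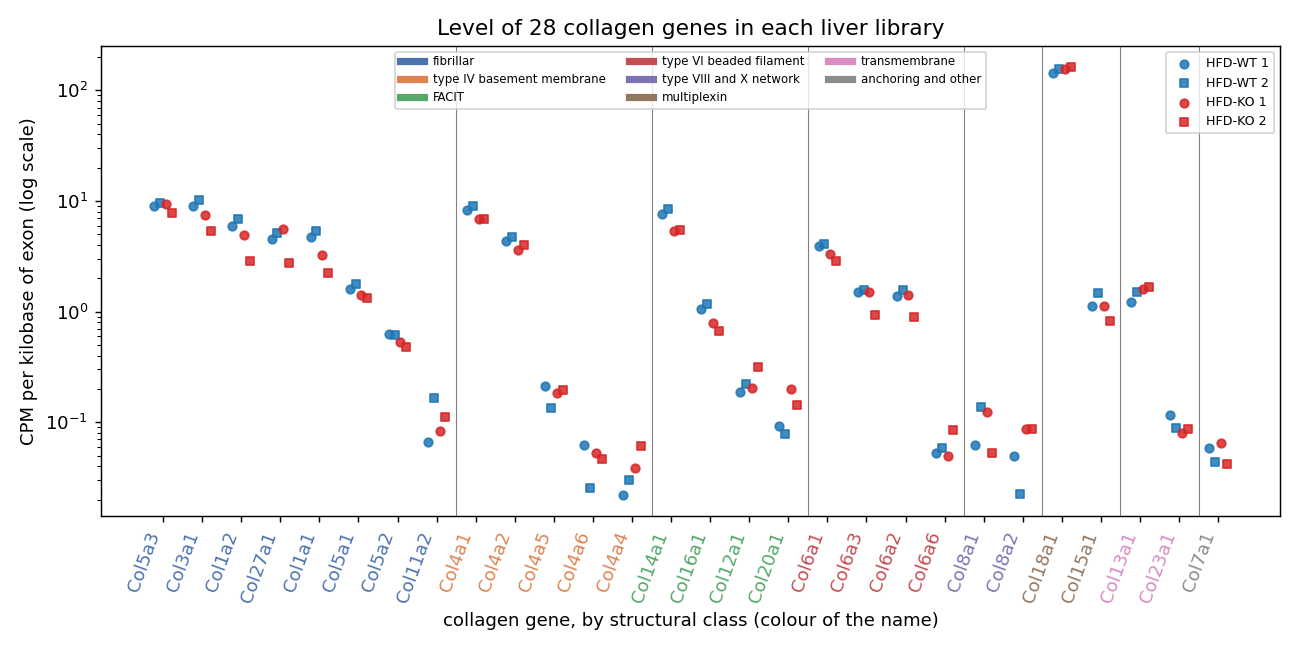
Level of each of the 28 tested collagen genes in the 4 libraries, as CPM per kilobase of exon on a log axis, with blue points for HFD-WT, red points for HFD-KO, circles for library 1 and squares for library 2, and genes grouped by structural class. Col18a1 stands at 145 to 162 CPM per kilobase in every library, far above the next gene, and the red points lie below the blue ones in most fibrillar genes.

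The comparison of HFD-KO with HFD-WT sets livers with and without ADAR2 side by side under the HFD. Across the family the HFD-KO libraries leaned lower: 18 of the 28 tested genes had a negative log2 fold change (64.3%, against 48.4% of all 12967 genes tested) and the median was -0.25, beside 0.0068 over all genes. Without HFD-KO 2 the median was -0.097. No collagen gene passed an adjusted p of 0.05 in the quasi-likelihood test of edgeR (Benjamini-Hochberg), where 10 of 12967 genes did (0.0771%). At an unadjusted p under 0.05, 9 of the 28 were lower (Col1a1, Col1a2, Col3a1, Col5a1, Col4a1, Col4a2, Col14a1, Col16a1 and Col6a1), against 4.73% of all genes, and 1 was higher (Col20a1), against 4.25% of all genes. The lower count was 7 without HFD-KO 2, against 5.69% of all genes, 13 without HFD-KO 1, against 8.25%, and 3 without HFD-WT 2 (Col1a1, Col3a1 and Col14a1), against 1.70%. Both HFD-KO libraries lay below both HFD-WT libraries in 13 of the 28, against 20.3% of all genes, and above them in 4, against 20.5%. The 13 include Col6a3, Col15a1 and Col23a1, where 1 HFD-KO library came close to HFD-WT. With 2 libraries per group the smallest p of an exact permutation test on 1 gene is 0.333, and the p-values given rest on the spread that the fit shares across genes.

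**Figure D2:**
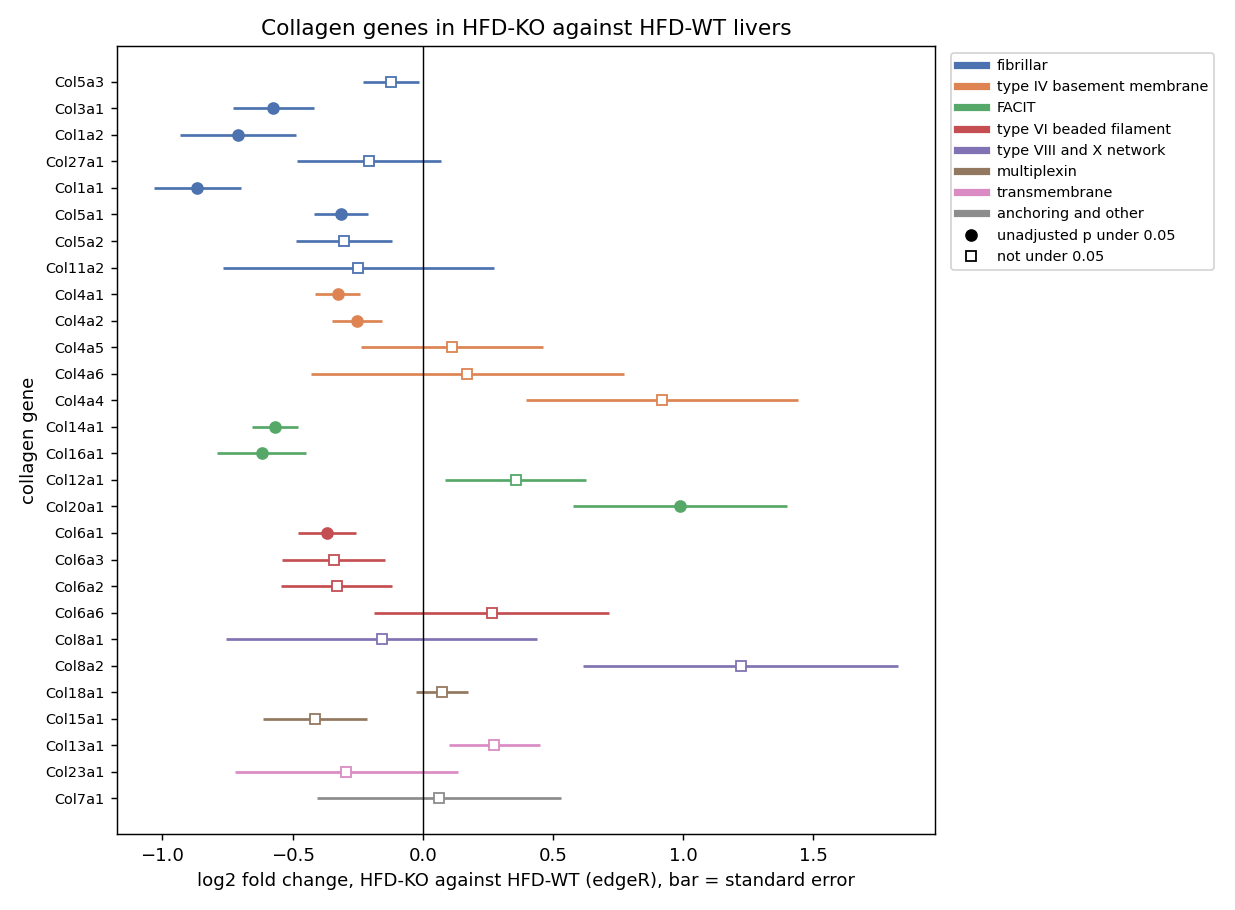
Log2 fold change of the 28 tested collagen genes, HFD-KO against HFD-WT, with bars of 1 standard error from the edgeR fit, coloured by class, with filled circles for an unadjusted p under 0.05. All 8 fibrillar genes lie left of 0, from -0.87 for Col1a1 to -0.12 for Col5a3, and the genes at the far right, Col8a2, Col20a1 and Col4a4, are among those with the fewest reads. In HFD-KO 1 alone, Col27a1 and Col5a3 were not below the HFD-WT mean.

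The fibrillar genes leaned lower with all libraries in the fit. The 8 tested then had a negative log2 fold change, with a median of -0.31. Without HFD-KO 2 their median was -0.32. The sign did not hold in each library, since HFD-KO 1 was above the HFD-WT mean for Col27a1 (0.21 on the log2 scale) and Col5a3 (0.011). At an unadjusted p under 0.05, 4 of them were lower, against 4.73% of all genes. Their summed level was 239 and 268 CPM in HFD-WT, 224 in HFD-KO 1 and 156 in HFD-KO 2, so both HFD-KO libraries lay under both HFD-WT libraries and HFD-KO 2 was the lowest.

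Col1a1 (chr11:94827050-94843868), which encodes the α1 chain of type I collagen, the main collagen of scar tissue, was at 30.3 and 34.2 CPM in HFD-WT and 20.96 and 14.4 CPM in HFD-KO. The groups did not overlap. Its log2 fold change was -0.87 (SE 0.17), the most negative of the family, with an unadjusted p of 0.0011 and an adjusted p of 0.21 in edgeR's test. Col1a2 (chr6:4504814-4541544), which encodes the partner α2 chain, was at 35.4 and 41.0 CPM in HFD-WT, 29.5 in HFD-KO 1 and 17.0 in HFD-KO 2. The HFD-KO libraries were both lower but far apart from each other, and the log2 fold change was -0.71 (SE 0.22, edgeR adjusted p = 0.419). Col3a1 (chr1:45350698-45388866), whose 3 identical chains make the type III collagen that mixes into type I fibrils, was at 54.0 and 61.9 CPM in HFD-WT, 45.3 in HFD-KO 1 and 32.4 in HFD-KO 2. Again both HFD-KO libraries were lower, HFD-KO 2 most, with a log2 fold change of -0.57 (SE 0.16, edgeR adjusted p = 0.359).

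Type V collagen, which starts fibrils and sets their width, differed less. Col5a1 (chr2:27776437-27929526), its α1 chain, was at 14.98 and 16.6 CPM in HFD-WT and 13.02 and 12.3 CPM in HFD-KO, lower in both HFD-KO libraries with little spread between them. Its log2 fold change was -0.32 (SE 0.10, edgeR adjusted p = 0.442). Col5a2, the α2 chain, was at 4.52 and 4.40 CPM in HFD-WT and 3.80 and 3.43 CPM in HFD-KO, which did not overlap, with a log2 fold change of -0.30 (SE 0.18) and an unadjusted p of 0.143. Col5a3, the α3 chain, was at 60.0 and 64.0 CPM in HFD-WT, 62.5 in HFD-KO 1 and 51.4 in HFD-KO 2. Here the groups overlapped, and the log2 fold change was -0.12 (SE 0.11, unadjusted p = 0.298).

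Col27a1, a fibrillar gene with a shorter helix, was at 38.8 and 44.4 CPM in HFD-WT, 48.1 in HFD-KO 1 and 23.8 in HFD-KO 2. HFD-KO 1 was the highest of the 4 libraries and HFD-KO 2 the lowest, the widest gap between libraries of a group among the genes at 4 CPM or more. Its log2 fold change was -0.21 (SE 0.28). Col11a2, a chain of cartilage fibrils, had 13 and 31 reads in HFD-WT and 15 and 18 in HFD-KO, which overlapped.

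Type IV collagen is encoded by 3 pairs of genes, each pair lying head to head, and the pairs stood at different levels. Col4a1 and Col4a2 on chromosome 8, the chains of the basement membranes found in most tissues, start from opposite strands and overlap by 22 bases at their starts in the table. Col4a1 (chr8:11248423-11362826) was at 59.3 and 65.7 CPM in HFD-WT and 49.9 and 49.8 CPM in HFD-KO. Both HFD-KO libraries were lower and almost alike, with a log2 fold change of -0.33 (SE 0.087, edgeR adjusted p = 0.358). Col4a2 (chr8:11362805-11499287) was at 30.1 and 33.3 CPM in HFD-WT and 25.0 and 28.2 CPM in HFD-KO, again without overlap, with a log2 fold change of -0.25 (SE 0.097, edgeR adjusted p = 0.51).

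The other 4 type IV genes encode the chains of specialised membranes such as the kidney filter and were low, with at most 44 reads in a library. Col4a4 and Col4a3, with 71 bases between their starts on chromosome 1, had 7 and 9 reads in HFD-WT and 11 and 16 in HFD-KO for Col4a4, and the low counts given above for Col4a3. The log2 fold change of Col4a4 was 0.92 (SE 0.52, unadjusted p = 0.121). Col4a5 and Col4a6, 1308 bases apart on the X chromosome, overlapped between the groups, at 0.945 to 1.52 CPM for Col4a5 and 0.182 to 0.449 CPM for Col4a6. Because these 3 small genes pull upward, the median of the 5 tested type IV genes was 0.11, while the summed type IV level was 91.8 and 101 CPM in HFD-WT and 77.1 and 80.6 CPM in HFD-KO.

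The FACIT genes, whose products bridge fibrils and other matrix, held the smallest p-value of the family. They also held its only gene that was higher at an unadjusted p under 0.05. Col14a1 (chr15:55171146-55384199), which encodes a fibril surface collagen, was at 58.1 and 64.7 CPM in HFD-WT and 40.9 and 41.9 CPM in HFD-KO. The HFD-KO libraries were close together and well under HFD-WT, with a log2 fold change of -0.57 (SE 0.088), an unadjusted p of 0.00029 and an adjusted p of 0.115 in edgeR's test. Col16a1 (chr4:129941633-129993076) was at 6.42 and 7.12 CPM in HFD-WT and 4.78 and 4.02 CPM in HFD-KO, which did not overlap either. Its log2 fold change was -0.62 (SE 0.17, edgeR adjusted p = 0.365).

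Col20a1 (chr2:180628328-180660156) had 15 and 12 reads in HFD-WT and 29 and 19 in HFD-KO, or 0.518, 0.436, 1.10 and 0.795 CPM. Both HFD-KO libraries were higher, with a log2 fold change of 0.99 (SE 0.41, unadjusted p = 0.045, edgeR adjusted p = 0.541). Its unadjusted p stayed under 0.05 in 2 of the 9 alternatives that tested it, with the size factors of DESeq2 and without HFD-KO 2. Col12a1, another fibril surface collagen, was at 2.45 and 2.91 CPM in HFD-WT, 2.70 in HFD-KO 1 and 4.19 in HFD-KO 2, which overlapped, with a log2 fold change of 0.36 (SE 0.27).

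Type VI collagen, whose 3 usual chains assemble around cells as beaded filaments, summed to 44.8 and 47.7 CPM in HFD-WT, 42.4 in HFD-KO 1 and 30.4 in HFD-KO 2. Col6a1 (chr10:76544626-76562002), the α1 chain, was at 17.4 and 18.1 CPM in HFD-WT and 14.8 and 12.6 CPM in HFD-KO. The groups did not overlap, and the log2 fold change was -0.37 (SE 0.11, edgeR adjusted p = 0.4). Col6a2, the α2 chain, was at 8.94 and 10.1 CPM in HFD-WT, 9.27 in HFD-KO 1 and 5.82 in HFD-KO 2. HFD-KO 1 lay between the HFD-WT libraries and HFD-KO 2 below them, with a log2 fold change of -0.33 (SE 0.21). Col6a3, the large α3 chain, was at 17.64 and 18.6 CPM in HFD-WT, 17.58 in HFD-KO 1 and 10.9 in HFD-KO 2. HFD-KO 1 was level with HFD-WT 1, and the log2 fold change was -0.34 (SE 0.20, unadjusted p = 0.124). Col6a6, an alternative chain, had 15 and 16 reads in HFD-WT and 13 and 20 in HFD-KO, which overlapped.

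Col6a2, Col6a1 and Col18a1 are consecutive among the collagen genes of chromosome 10, all on the same side of Adarb1 (chr10:77126560-77254104). Col18a1 ends 124178 bases from Adarb1, Col6a1 564558 bases and Col6a2 667096 bases. The deleted allele and the chromosome around it were inherited together, so for these 3 genes the genotype and any variants linked to it cannot be told apart.

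In the remaining classes no gene had an unadjusted p under 0.05 in either direction. Col18a1 was at 1101 and 1195 CPM in HFD-WT and 1188 and 1229 CPM in HFD-KO, which overlapped, with a log2 fold change of 0.07 (SE 0.099, unadjusted p = 0.478). Col15a1, the other multiplexin, was at 7.42 and 9.59 CPM in HFD-WT and 7.33 and 5.40 CPM in HFD-KO. Its HFD-KO 1 library lay just under HFD-WT 1, with a log2 fold change of -0.41 (SE 0.20, unadjusted p = 0.073).

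Col13a1, a transmembrane collagen of cell adhesion sites, was at 4.31 and 5.31 CPM in HFD-WT and 5.73 and 5.90 CPM in HFD-KO, higher in both HFD-KO libraries, with a log2 fold change of 0.27 (SE 0.18, unadjusted p = 0.159). Col23a1, also transmembrane, had 21 and 15 reads in HFD-WT and 13 and 13 in HFD-KO. Its log2 fold change was -0.29 (SE 0.43). Col8a2, a network collagen, had 7 and 3 reads in HFD-WT and 11 and 10 in HFD-KO, with a log2 fold change of 1.22 (SE 0.60, unadjusted p = 0.081), and its partner Col8a1 had 10 and 21 reads in HFD-WT and 18 and 7 in HFD-KO. Col7a1, the anchoring fibril of the skin, had 17 and 12 reads in HFD-WT and 17 and 10 in HFD-KO. At these depths no difference in Col7a1, Col8a1 or Col23a1 was detectable.

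The 2 HFD-KO libraries differed from each other in a way that split the lower genes. HFD-KO 2 was under HFD-KO 1 in 17 of the 28 genes, against 6571 of 12951 genes tested with reads in both. The median was -0.16 on the log2 scale, beside -0.0042 over all genes. The HFD-WT libraries differed by a like amount. HFD-WT 2 was under HFD-WT 1 in only 7 of the 28, against 6449 of 12954 genes. The median was 0.15, beside 0.0011 over all genes. In Col14a1, Col4a1 and Col5a1 both HFD-KO libraries were lower by a like amount: against the HFD-WT mean, HFD-KO 1 and HFD-KO 2 were at -0.58 and -0.55 on the log2 scale for Col14a1. The values were -0.33 and -0.33 for Col4a1 and -0.28 and -0.36 for Col5a1. In Col1a1, Col1a2 and Col3a1 both were lower but HFD-KO 2 much more so, at -0.62 and -1.17 for Col1a1, -0.37 and -1.16 for Col1a2 and -0.35 and -0.84 for Col3a1. In Col6a2, Col6a3 and Col27a1 the HFD-KO 2 library alone was low, with HFD-KO 1 at -0.039 for Col6a2, -0.042 for Col6a3 and 0.21 for Col27a1.

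**Figure D3:**
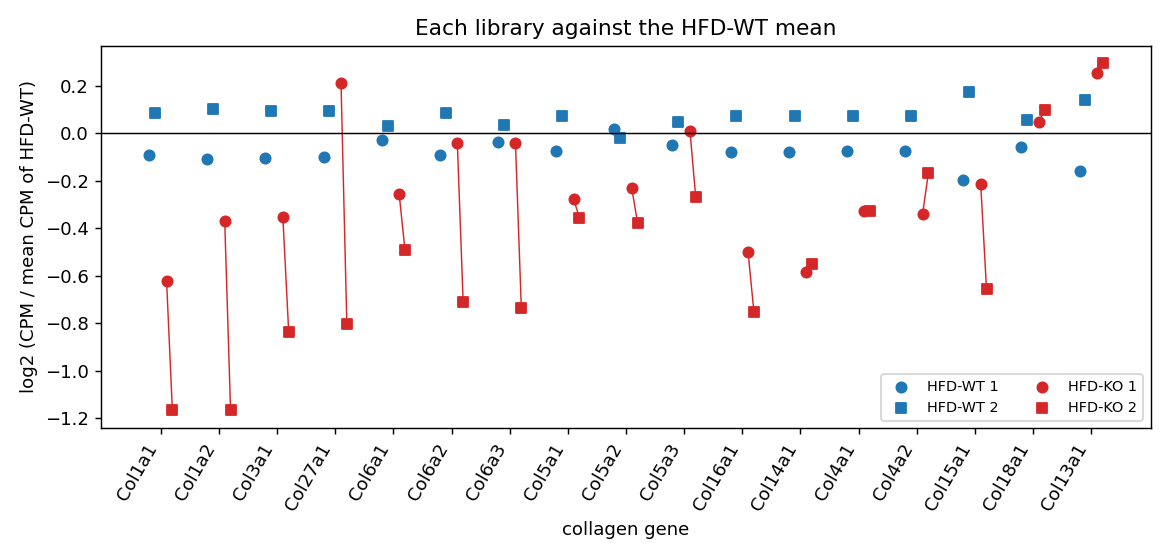
Each library against the mean of the HFD-WT libraries, as log2 of the CPM ratio, for the 17 collagen genes with a mean of at least 4 CPM over the groups, with blue points for HFD-WT, red points for HFD-KO, circles for library 1, squares for library 2, and a red line joining the HFD-KO libraries. The lines are short for Col14a1, Col4a1 and Col5a1 and long for Col1a2, Col27a1, Col6a2 and Col6a3, where HFD-KO 2 is far below HFD-KO 1.

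Col1a1 and Col14a1 were not called by edgeR at an adjusted p under 0.05 (Benjamini-Hochberg) with all libraries. Both were called without HFD-KO 2, a fit in which calls over all genes rose too. The log2 fold changes of Col1a1 and Col14a1 were then -0.62 and -0.58. Leaving out HFD-KO 1 called 9 collagen genes (Col1a1, Col1a2, Col3a1, Col27a1, Col6a1, Col6a2, Col6a3, Col14a1 and Col16a1), where 4.82% of all genes were called, so 7 of the 9, all but Col1a1 and Col14a1, were called with HFD-KO 2 and not with HFD-KO 1 as the sole HFD-KO library. Col1a1 and Col14a1 were also called by the DESeq2 Wald test, with adjusted p = 0.0024 for Col1a1 and adjusted p = 0.0025 for Col14a1, beside 0.887% of all genes. Without the low count filter, edgeR called both as well, beside 0.936% of all genes. With 1 library in a group, that library is assumed to vary as the others do.

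Chains that share a trimer can be compared within a library, where scaling has no part. Per kilobase, the ratio of Col1a1 to Col1a2 was 0.799 and 0.778 in HFD-WT and 0.662 and 0.786 in HFD-KO, which overlapped. The ratio of Col4a1 to Col4a2 was 1.90 and 1.91 in HFD-WT and 1.93 and 1.71 in HFD-KO, and that of Col6a1 to Col6a3 was 2.61 and 2.58 in HFD-WT and 2.24 and 3.06 in HFD-KO. These 3 ratios overlapped between the groups, as did Col5a1 to Col5a2, Col6a1 to Col6a2 and Col4a5 to Col4a6. The ratio of Col1a1 to Col3a1, chains of types I and III that form separate trimers, did not overlap. Per kilobase it was 0.527 and 0.518 in HFD-WT and 0.434 and 0.415 in HFD-KO, both lower, with a difference of -0.30 on the log2 scale. The other type I chain, Col1a2, was not set against Col3a1 in this way. Against the HFD-WT mean, Col1a2 and Col3a1 were at -0.37 and -0.35 in HFD-KO 1 and at -1.16 and -0.84 in HFD-KO 2. The ratio of Col4a3 to Col4a4, from few reads, did not overlap either, at 1.18 and 0.919 in HFD-WT and 0.322 and 0.369 in HFD-KO. As for single genes, the smallest p that an exact permutation test could give for such a ratio is 0.333, and neither gap was tested.

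The family's make-up shifted with these levels. Without Col18a1, the collagen genes summed to 457 and 509 CPM in HFD-WT, 409 in HFD-KO 1 and 331 in HFD-KO 2, while with it the sums overlapped, at 1558 and 1704 CPM in HFD-WT and 1597 and 1560 CPM in HFD-KO. Per kilobase, fibrillar genes held 16.8% and 17.2% of the collagen level in HFD-WT, 15.2% in HFD-KO 1 and 10.9% in HFD-KO 2. FACIT genes held 4.28% and 4.35% in HFD-WT and 3.08% and 3.16% in HFD-KO. Type IV genes held 6.06% and 6.07% in HFD-WT and 4.99% and 5.36% in HFD-KO.

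The genes that build, crosslink, bind and degrade collagen were read from 7 lists with 114 genes, of which 99 were tested. None passed an adjusted p of 0.05 in edgeR's test or in DESeq2. At an unadjusted p under 0.05, 16 were lower, against 4.73% of all genes, and 2 higher, against 4.25%, and 76 of the 99 had a negative log2 fold change, with a median of -0.18. Against the HFD-WT mean, the median of the 99 was -0.13 in HFD-KO 1 and -0.24 in HFD-KO 2. The same shares of all genes, 4.73% lower and 4.25% higher, apply to the counts of each list and marker set below.

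The folding machinery held no gene with an unadjusted p under 0.05. Of 20 tested chaperones and modifying enzymes, 15 were negative with a median of -0.10. P4hb, a subunit of prolyl 4-hydroxylase and the highest of the list per kilobase, was at 1346 and 1417 CPM in HFD-WT and 1284 and 1384 CPM in HFD-KO. Serpinh1 (HSP47), the chaperone specific to collagen, was at 15.7 and 18.4 CPM in HFD-WT and 15.4 and 12.0 CPM in HFD-KO, with a log2 fold change of -0.32 (SE 0.14, unadjusted p = 0.06). Of 11 tested genes of propeptide cleavage and crosslinking, none had an unadjusted p under 0.05 and the median was -0.09. Furin, a protease that activates matrix enzymes and the highest of that list per kilobase, was at 299.99 and 331 CPM in HFD-WT and 281 and 295 CPM in HFD-KO, which did not overlap, with a log2 fold change of -0.13 (SE 0.090, unadjusted p = 0.183).

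Degradation genes were mostly negative, 13 of 14 tested, with a median of -0.36, 2 lower and 1 higher at an unadjusted p under 0.05. The libraries differed here. Against the HFD-WT mean, the list's median was -0.09 in HFD-KO 1 and -0.48 in HFD-KO 2 on the log2 scale. Timp3, a metalloproteinase inhibitor bound to the matrix, was at 26.0 and 29.9 CPM in HFD-WT and 20.6 and 19.3 CPM in HFD-KO, with a log2 fold change of -0.49 (SE 0.10, edgeR adjusted p = 0.233). Mmp12, the macrophage elastase, was at 10.46 and 15.2 CPM in HFD-WT and 10.48 and 6.57 CPM in HFD-KO (log2 fold change -0.58), which overlapped. Mmp14, a membrane-bound collagenase, went the other way, at 39.6 and 38.3 CPM in HFD-WT and 43.4 and 52.5 CPM in HFD-KO, with a log2 fold change of 0.30 (SE 0.11, unadjusted p = 0.026). Ctsb, a lysosomal protease, was the highest of the list per kilobase and had a log2 fold change of -0.09.

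Of 6 tested collagen receptors, 2 were lower at an unadjusted p under 0.05. Ddr2, a receptor kinase for fibrillar collagen, was at 3.69 and 4.07 CPM in HFD-WT and 2.70 and 2.68 CPM in HFD-KO (log2 fold change -0.53, SE 0.20). Lair1, an inhibitory collagen receptor of immune cells, was at 3.31 and 4.91 CPM in HFD-WT and 2.66 and 1.84 CPM in HFD-KO (log2 fold change -0.86, SE 0.29). Neither receptor overlapped between the groups. Itgb1, the shared subunit of collagen integrins, had a log2 fold change of -0.12.

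Fibril partners were mostly negative, though their summed level, which Fn1 dominates, was not lower (log2 ratio of the group means 0.07). Of 12 tested, 10 were negative with a median of -0.33, and an unadjusted p under 0.05 went with lower values in 3. Against the HFD-WT mean, their median was -0.23 in HFD-KO 1 and -0.52 in HFD-KO 2 on the log2 scale. Lum (lumican), which spaces fibrils, was at 14.9 and 16.4 CPM in HFD-WT and 11.3 and 7.87 CPM in HFD-KO, with a log2 fold change of -0.70 (SE 0.17, edgeR adjusted p = 0.281). Dcn (decorin), which binds type I fibrils, was at 179 and 202 CPM in HFD-WT, 165 in HFD-KO 1 and 119 in HFD-KO 2 (log2 fold change -0.43, SE 0.15). Both were lowest in HFD-KO 2, as Col1a1, Col1a2 and Col3a1 were. Sparc, a collagen-binding glycoprotein, had a log2 fold change of -0.25 (SE 0.095). Fn1 (fibronectin), made in bulk by hepatocytes and the highest of the list, overlapped at 1571 to 2112 CPM.

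Of 15 tested basement membrane partners, 5 were lower and 1 higher at an unadjusted p under 0.05, with a median of -0.19. Nid1 (nidogen), which links laminin to type IV collagen, was at 27.5 and 32.5 CPM in HFD-WT and 21.6 and 24.5 CPM in HFD-KO (log2 fold change -0.38, SE 0.11). Lamb1, a laminin chain, was at 11.9 and 9.99 CPM in HFD-WT and 7.59 and 8.50 CPM in HFD-KO (log2 fold change -0.45, SE 0.14). Hspg2 (perlecan), the heparan sulphate proteoglycan of these membranes, was at 38.2 and 37.3 CPM in HFD-WT and 32.9 and 30.9 CPM in HFD-KO (log2 fold change -0.24, SE 0.082). None of these 3 overlapped between the groups. Agrn (agrin), the highest of the list per kilobase, had a log2 fold change of -0.01.

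Of 21 tested genes of the TGF-beta and PDGF inputs to collagen synthesis, 4 were lower and none higher at an unadjusted p under 0.05, with a median of -0.23. Ccn2 (CTGF), a matricellular target of TGF-beta, was at 16.5 and 20.1 CPM in HFD-WT and 13.1 and 12.3 CPM in HFD-KO, with a log2 fold change of -0.52 (SE 0.12, edgeR adjusted p = 0.262). Tgfbr2, a TGF-beta receptor, was at 32.8 and 35.3 CPM in HFD-WT and 27.4 and 24.2 CPM in HFD-KO (log2 fold change -0.40, SE 0.094, edgeR adjusted p = 0.271). Both were lower in each HFD-KO library. Ltbp1, which stores latent TGF-beta in the matrix, was at 4.66 and 4.36 CPM in HFD-WT and 3.49 and 2.72 CPM in HFD-KO (log2 fold change -0.53, SE 0.21, edgeR adjusted p = 0.511). Its relative Ltbp4, the highest of the list per kilobase, overlapped at 41.9 to 62.7 CPM.

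**Figure D4:**
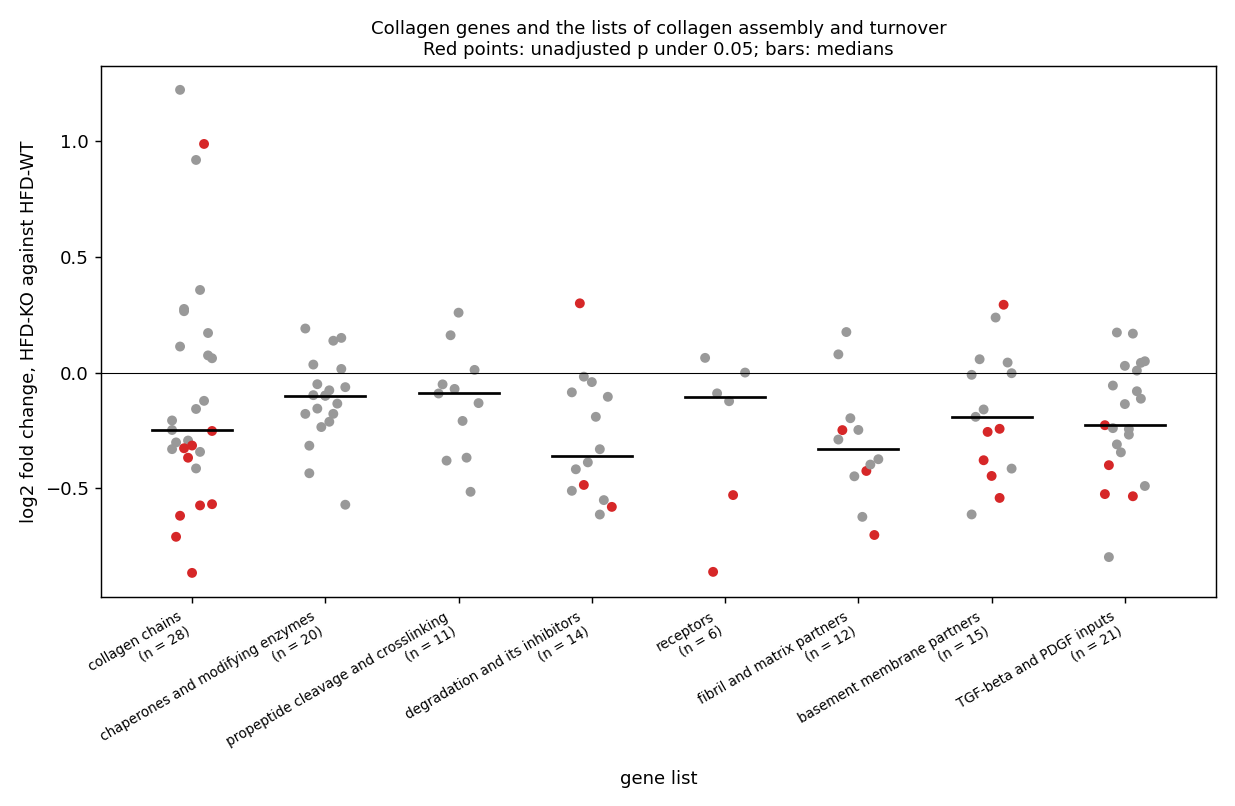
Log2 fold change, HFD-KO against HFD-WT, of the 28 tested collagen genes and of the tested genes of 7 lists of collagen assembly and turnover, 1 point a gene, red where the unadjusted p was under 0.05, with black bars for the medians. The medians run from -0.36 for the degradation list to -0.09 for propeptide cleavage and crosslinking, beside -0.25 for the collagens. By library, the degradation median was -0.09 in HFD-KO 1 and -0.48 in HFD-KO 2 against the HFD-WT mean.

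Marker genes of the cells that make collagen were read beside these values, since in whole liver fewer cells of a type and less RNA per cell cannot be told apart. The 12 stellate cell markers summed to 300 and 327 CPM in HFD-WT, 284 in HFD-KO 1 and 237 in HFD-KO 2, and had a median log2 fold change of -0.09. At an unadjusted p under 0.05, 2 were lower (Reln at -0.53 and Colec11 at -0.30), against 4.73% of all genes. Lrat, which stores vitamin A in these cells, was at 8.56 and 8.83 CPM in HFD-WT and 8.43 and 7.87 CPM in HFD-KO (log2 fold change -0.09), and Des (desmin) had a log2 fold change of 0.01. Acta2 and Tagln, which mark activated stellate cells, had log2 fold changes of 0.07 and -0.12. Of the 5 tested markers of that list, 4 were negative and 1 positive, with a median of -0.25. Timp1 was at -0.51 and Postn at -0.25, and Spp1, at -0.62, was the 1 lower at an unadjusted p under 0.05. All 7 markers of that list summed to 84.6 and 108 CPM in HFD-WT and 71.3 and 64.4 CPM in HFD-KO. Spp1, which cholangiocytes and macrophages express too, made up most of that sum. The 9 portal fibroblast markers summed to 23.0 and 23.0 CPM in HFD-WT and 20.9 and 18.5 CPM in HFD-KO. Of the 7 tested, 5 were negative and 2 positive, with a median log2 fold change of -0.20. At an unadjusted p under 0.05, 1 was lower (Mfap4 at -0.68) and 1 higher (Pi16 at 1.16).

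Macrophage markers were further below HFD-WT. The 9 genes summed to 359 and 448 CPM in HFD-WT and 287 and 273 CPM in HFD-KO, with a median log2 fold change of -0.51. At an unadjusted p under 0.05, 6 of 9 were lower, against 4.73% of all genes, and 1 of the 9 was positive (Marco at 0.46). Endothelial markers, from cells that make type IV collagen, summed to 317 and 355 CPM in HFD-WT and 306 and 326 CPM in HFD-KO. Their median was -0.0024 over 10 genes, 5 positive and 5 negative. The 1 lower at an unadjusted p under 0.05 was Lyve1 at -0.70, and Stab1, at -0.29, did not overlap between the groups. Hepatocyte markers summed to 79704 and 79187 CPM in HFD-WT and 80821 and 92333 CPM in HFD-KO, the tissue being liver by these genes in all 4 libraries. Cholangiocyte markers summed to 71.6 and 90.6 CPM in HFD-WT and 59.6 and 50.1 CPM in HFD-KO, of which Spp1 made up 64.3, 83.9, 53.8 and 42.8 CPM. Smooth muscle markers summed to 10.1 and 11.1 against 10.4 and 7.58, mesothelial markers to 9.04 and 4.91 against 8.73 and 6.49, and platelet markers to 4.59 and 4.51 against 3.49 and 5.15. No marker of these lists was at 0 in all libraries, and the part of the stellate cell, macrophage and red cell values in the collagen results was not tested.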

How the data were processed

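Liver RNA of HFD-WT and HFD-KO mice was sequenced as paired reads with a directional library kit. The authors trimmed and aligned the reads with the RNA-seq alignment tool of MGI Tech and counted reads per gene in Partek Genomics Suite with GENCODE annotation. The methods name mm10, while the table's positions are those of GRCm39, and tool versions, strand use and the handling of reads that map to several places are not given in the sources used here. Without stated strand use, reads of overlapping genes such as Col4a1 and Col4a2 may be shared at their overlap. The deposited table holds raw read counts, which were used for every test, RPKM, from which the authors' exon lengths were derived, and TPM and CPM (a score scaled by the authors with a factor per library), which entered no result.

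Counts were scaled by TMM, filtered with filterByExpr and tested with edgeR 4.0.16 (R 4.3.3; glmQLFit and glmQLFTest, two-sided, genotype only) on all 12967 genes that passed, with Benjamini-Hochberg adjustment over them. Alternatives were DESeq2 1.42.0, its size factors, library size alone, no filter, a mean CPM of at least 1, a replicate block and leaving out each library. The collagen genes, their classes and all gene lists were chosen with earlier results of these data known, and lists are described by counts and medians without a test. Named with full statistics were collagens at an unadjusted p under 0.05, the 2 highest per kilobase of each class and the type I, III, VI and Col4a1 and Col4a2 chains, and of each other list up to 3 genes with the smallest unadjusted p under 0.05 and the highest per kilobase. A gene of the TGF-beta and PDGF list is not reported here. Serpinh1 and the individual marker genes were added after their values were seen. Reading frames came from GENCODE M21 transcripts and promoters from RefSeq. Counting limits cover counting error only.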

Additional observations from a re-analysis of the deposited data

How the results depend on the processing

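The count of collagen genes lower at an adjusted p under 0.05 was 0 in edgeR's test and 2 both in DESeq2 and without the low count filter, and ran from 0 to 9 when each library was left out, the 9 arising without HFD-KO 1, where 4.82% of all genes were called against 0.0771% with all libraries. At an unadjusted p under 0.05, the lower count of 9 became 3 to 13 with a library left out (3 without HFD-WT 2, 13 without HFD-KO 1, where the share over all genes was 1.70% and 8.25%), and the higher count of 1 became 0 with library size alone, DESeq2, no filter, a mean CPM of at least 1 or the replicate block, and 0 to 1 with a library left out. The median log2 fold change of the tested collagens stayed negative in all 10 alternatives, nearest 0 without HFD-KO 2 at -0.097. In the assembly and turnover lists, no filter gave 3 lower genes at an adjusted p under 0.05 and 26 lower at an unadjusted p, DESeq2 gave 10 lower and 1 higher at an unadjusted p, library size alone gave 1 higher, and leaving out a library gave 0 to 14 lower and 0 to 2 higher adjusted and 7 to 28 lower and 0 to 7 higher unadjusted, the extremes of the lower counts falling in the same fits as those of the collagens. The log2 fold change changed sign in leave-one-out fits for Col5a3 (-0.27 to 0.011), Col8a1 (-0.90 to 0.51) and Col7a1 (-0.29 to 0.33), and for none of the other 17 collagens named with full statistics in any alternative. The remaining collagens, Col27a1 among them, are not covered by this count. Against the HFD-WT mean, Col27a1 was at 0.21 in HFD-KO 1 and -0.81 in HFD-KO 2. With the replicate block the lower count was 9 and the adjusted count 0. Over all genes tested, same-numbered libraries did not deviate together (correlation -0.087). With 2 libraries per group this cannot exclude that they were paired in some step. Library size scaling moved the median of all genes to -0.039. Except where the alternative drops libraries or genes, the cause was not tested. Col4a3, Col8a2, Col20a1 and other genes with few reads are limited by depth.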
